A study of Rattus norvegicus with 6 samples.

Results

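The genes described are the translation initiation factors of the rat and the proteins that bind or block them, taken as the rows named Eif1 to Eif6 of the gene tables. The kinases and the exchange factor of eIF2 (Eif2ak and Eif2b names) and the eIF2 subunit genes Eif2s1, Eif2s3 and Eif2s3y were left out of the group by its rule. The rule gave 40 of the 28358 genes in the tables by their names alone. Of the 40, 39 passed the filter on low counts, and Eif4e1b, with 1 to 4 counts in a library, did not. Eif5, Eif3e and Eif3i, which would also belong here by function, were not analysed here.

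RNA had been sequenced from the neuroretina of male Goto-Kakizaki rats, a lean strain with inherited type 2 diabetes, aged 14 months. Each eye had been injected once, 2 months earlier, with 5 µL of a suspension of PLGA microspheres, small beads of a degradable polymer, placed in the vitreous. The 3 non-loaded samples received beads without drug, and the beads of the 3 spironolactone samples carried 6.2 µg of this mineralocorticoid receptor antagonist. There was no uninjected eye and no non-diabetic strain among the samples. The labels do not tie a sample to an animal, and the p-values below therefore reflect only how these samples vary, part of which may be technical.

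Libraries held 9996198 to 12589466 expected counts. Markers of retinal neurons and Müller glia were present in all 6 libraries, whereas the 4 lens markers summed to at most 2.23 CPM (counts scaled by library size and TMM factor to a common total). Of 6 rod markers, 2 (Gnat1 and Rom1) were lower with spironolactone, and the 6 summed to 19689.5 to 24463 CPM in non-loaded and 16932 to 18468 CPM in spironolactone libraries. The 4 rod markers that were not called (Pde6a, Pde6b, Nrl and Sag) summed to 10361 to 10989 and 10302 to 10635 CPM, which overlap. These 4 were picked by their lack of a call, so nothing about rod content follows from the overlap. Their log2 fold changes were −0.08, −0.10, −0.22 and 0.08. The 5 markers of the pigment epithelium, a tissue next to the retina, had 0 calls and summed to 85.4 to 101.3 and 41.9 to 93.8 CPM. The part of these values in the results below was not tested. In bulk tissue, fewer cells of a type and less RNA per cell cannot be told apart.

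Initiation factors bring the ribosome to the start codon of an mRNA. The cap at the 5′ end is bound by eIF4E, which sits with the scaffold eIF4G and the helicase eIF4A in the eIF4F complex, while eIF3, eIF1, eIF1A and the ternary complex of eIF2, GTP and initiator tRNA assemble on the small ribosomal subunit. The 4E-binding proteins compete with eIF4G for eIF4E and are switched off by the kinase mTORC1. In amino acid shortage or protein folding stress, phosphorylation of eIF2 lowers general initiation and favours the translation of the transcription factor ATF4, which acts through C/EBP-ATF response elements.

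The core letters of such an element were found before the start sites of Eif2s2, a called member, and of Eif3g, which was not called. Whether ATF4 acts on either gene was not tested. Promoter sequences were taken from RefSeq (build GRCr8, another build than the one the counts were made on), in which 35 of the 40 members were matched by symbol. Eif3h, Eif3el1, Eif4b, Eif4e3 and Eif4ebp1 were not matched. The 250 bases before the annotated start were searched on both strands for TGATGNAA, the core of the C/EBP-ATF response element, and for CACGTG, the E-box bound by Myc and related factors. No match of one motif overlapped a match of the other in these genes. TGATGNAA was present in 2 of the 35 members (5.71%), Eif2s2 and Eif3g, against 3.40% of 33469 rat promoters of the same length. In Eif2s2 the match reads TGATGCAA and lies 36 to 29 bases before the start on the strand of the gene. In Eif3g it lies 239 to 232 bases before the start and reads TTCCATCA, the motif on the opposite strand. The promoter of Eif1, the other called member, is shown because it holds neither motif. Sequences run 5′ to 3′ on the strand of the gene, and capitals mark the TGATGNAA match.
Eif2s2, chr3:163855571-163855820, minus strand: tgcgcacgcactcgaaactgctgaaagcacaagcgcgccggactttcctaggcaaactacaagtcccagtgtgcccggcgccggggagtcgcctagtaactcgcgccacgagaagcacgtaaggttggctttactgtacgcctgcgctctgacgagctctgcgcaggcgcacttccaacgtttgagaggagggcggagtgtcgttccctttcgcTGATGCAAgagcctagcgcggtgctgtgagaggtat
Eif3g, chr8:27709947-27710196, minus strand: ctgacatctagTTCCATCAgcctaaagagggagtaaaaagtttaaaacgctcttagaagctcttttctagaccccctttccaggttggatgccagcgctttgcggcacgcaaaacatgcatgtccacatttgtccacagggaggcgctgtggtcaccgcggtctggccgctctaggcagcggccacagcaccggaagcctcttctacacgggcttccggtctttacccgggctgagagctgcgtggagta
Eif1, chr10:85746887-85747136, plus strand: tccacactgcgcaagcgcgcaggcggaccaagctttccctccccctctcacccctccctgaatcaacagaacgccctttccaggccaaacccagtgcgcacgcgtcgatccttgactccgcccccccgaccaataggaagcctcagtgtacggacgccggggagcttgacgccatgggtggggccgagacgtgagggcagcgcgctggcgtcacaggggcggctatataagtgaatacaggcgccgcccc
A match describes letters only and does not show a bound site, and a missing match says only that these letters are not in this window.

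The E-box was found in 8 of the 35 members (22.9%) against 5.59% of all promoters. All promoters were counted, with no matching to the members in base content or expression, and the difference in share was not tested. The 8 members were Eif1b, Eif3b, Eif3f, Eif4e, Eif4g1, Eif4h, Eif5a and Eif5a2. In 4 of them it begins 54 to 59 bases before the start, a window noted after the matches were seen. An E-box begins there in 0.239% of all promoters. Because the window was set from the members' own matches, nothing follows from the difference. None of the 8 genes passed the test described below. The 4 matches at this place are shown in windows of equal length, with the E-box in capitals.
Eif1b, chr8:129081093-129081120, plus strand: gaacgtgtggtCACGTGgcggcggcgcg
Eif4g1, chr11:93746405-93746432, minus strand: gcagtgggtgtCACGTGatggggcggag
Eif3b, chr12:19334809-19334836, minus strand: ctcgctgcacgCACGTGgctccgcgcta
Eif3f, chr1:172368992-172369019, plus strand: aagatatgggtCACGTGgtacaaattta

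Per length, the members spanned 3 orders of magnitude of the TPM scale (transcript abundance per length, scaled to a common total). Eif1, whose product scans for the start codon, had the highest mean over the 6 libraries at 725 TPM. It was followed by Eif4g2 (448 TPM), a scaffold that lacks the eIF4E site, Eif5a (424 TPM), which helps ribosomes through difficult peptide bonds, and the helicase gene Eif4a2 (374 TPM). Eif4e1b (0.55 TPM), Eif4e3 (7.44 TPM) and Eif4ebp1 (8.13 TPM) were the lowest. The 12 genes of eIF3, a complex with single copies of its subunits, still lay between 45.6 TPM (Eif3j, a loosely bound subunit) and 228 TPM (Eif3f). Together the 40 genes made up 5380 to 5645 TPM in non-loaded and 5587 to 6011 TPM in spironolactone libraries, so the groups overlapped on this scale. In CPM they summed to 6156 to 6323 in non-loaded and 6450 to 6642 in spironolactone libraries, without overlap. Of the difference between the group means in TPM, 232 TPM came from Eif2s2 and Eif1 and 75.7 TPM from the other 38 genes.

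**Figure D1:**
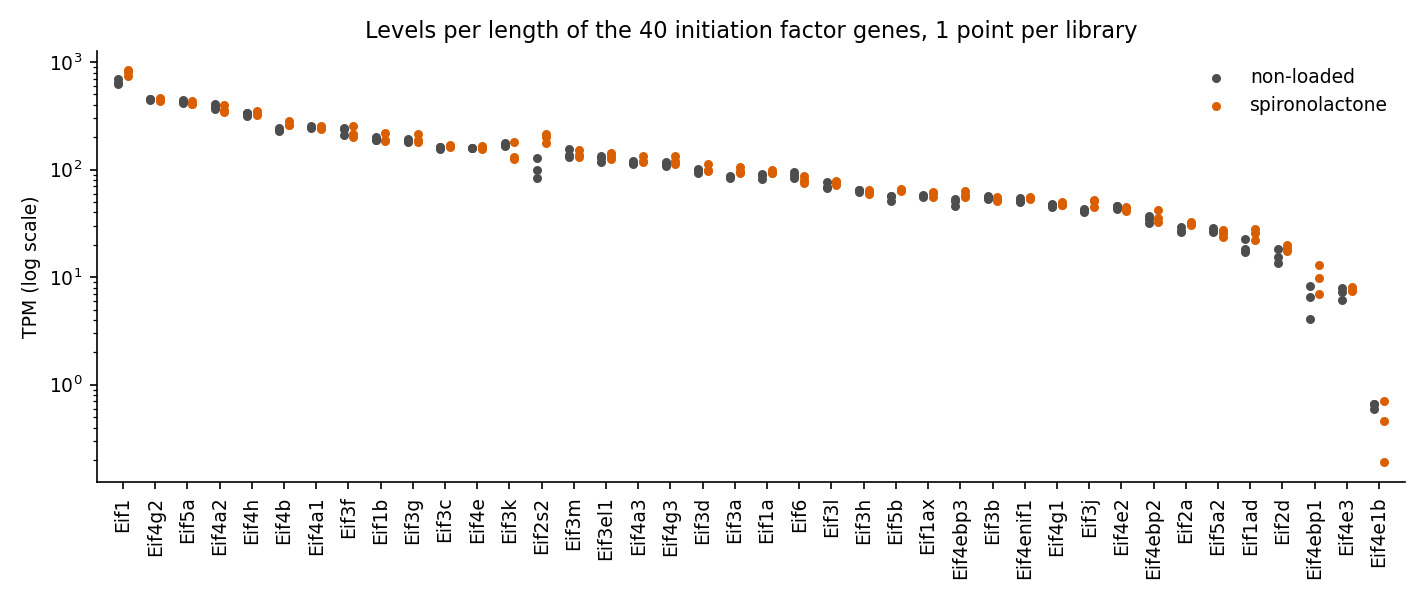
TPM (log axis) of the 40 initiation factor genes in order of their mean, with 1 point per library, non-loaded in grey and spironolactone in orange. Eif1 stands at the top with a mean of 725 TPM and Eif4e1b at the bottom with 0.55 TPM, and for Eif2s2 the 3 orange points lie above the 3 grey ones.

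The comparison asked which of these genes differed between spironolactone-loaded and non-loaded beads. Eif2s2, which encodes the beta subunit of eIF2, rose 1.89-fold, and Eif1, whose product keeps the scanning ribosome from starting at a wrong codon, rose 1.2-fold. None of the members was called lower. Thus 2 of 39 tested members were called higher (5.13%; edgeR quasi-likelihood test, Benjamini-Hochberg adjusted over 13242 genes, threshold 0.05), against 1.87% of all tested genes. For lower expression the count was 0 of 39 against 0.763% of all genes. Called in either direction were 2.63% of all genes. At an unadjusted p below 0.05, 9 members were higher and 1 was lower, together 25.6% of the members against 15.8% of all tested genes. With DESeq2 the same 2 genes were called, and with limma on log2(TPM + 1) Eif2s2 alone. With 2 calls the shares rest on single genes, and nothing about the group as a whole follows from them.

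**Figure D2:**
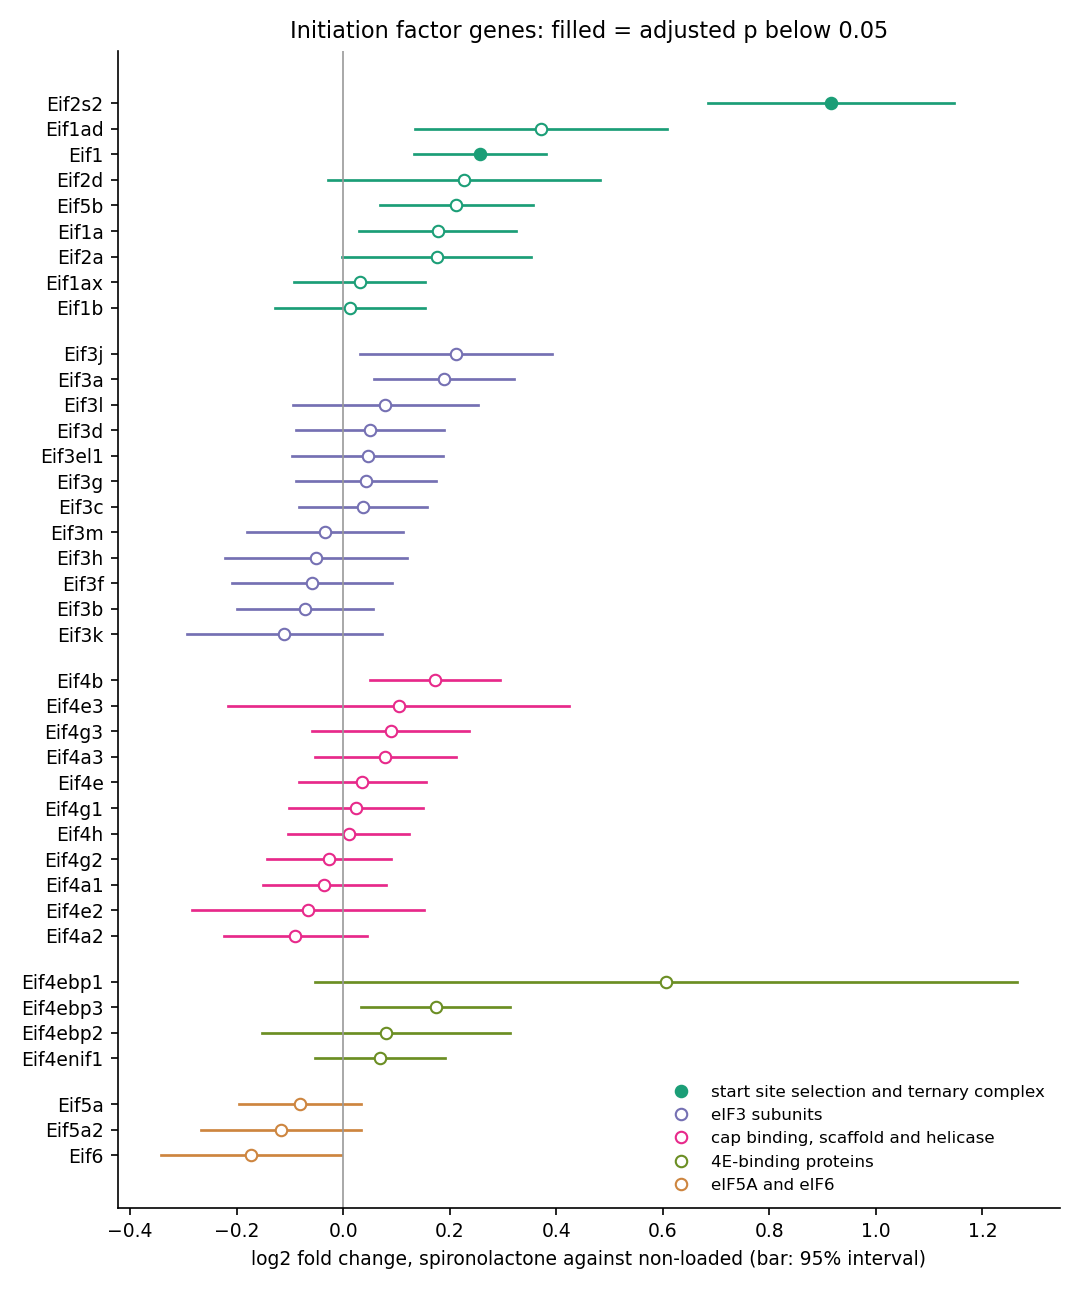
Log2 fold change (spironolactone against non-loaded, x axis) of the 39 tested members with 95% intervals, sorted within 5 roles; filled points passed the adjusted threshold. Eif2s2 at 0.92 and Eif1 at 0.26 are the filled points. All 9 genes of the role start site selection and ternary complex, which was set by gene names, lie right of 0.

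Most members moved little. The log2 fold change was above 0 for 27 and below 0 for 12, against 6532 and 6710 of all tested genes. The split of the members was the same with the other scalings (RLE and upper quartile). With a library left out it ranged from 24 and 15 (without non-loaded replicate 1) to 28 and 11 (without non-loaded replicate 3). The median of the members was 0.05 against −0.0027 over all tested genes. The libraries of the groups did not overlap for 9 members that were higher with spironolactone and 3 that were lower, against 11.4% and 9.48% of all genes. In either direction this was 12 of 39 members (30.8%) against 20.9% of all genes.

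The largest change was that of Eif2s2, whose product is 1 of the 3 chains of eIF2 and contacts the initiator tRNA. It measured 58.7, 72.0 and 88.3 CPM in the non-loaded libraries (replicates 1 to 3) and 120.7, 142.9 and 151.0 CPM in the spironolactone libraries. All 3 spironolactone libraries were above the highest non-loaded one, and replicate 3 was the highest of the non-loaded group. The means were 73.0 ± 14.8 and 138.2 ± 15.7 CPM (SD, n = 3), which edgeR put at 0.92 ± 0.11 on the log2 scale (SE; 95% interval 0.69 to 1.15; adjusted p = 0.000114). It passed without any 1 of the 6 libraries, with log2 fold changes of 0.79 to 1.07 and adjusted p of 7.03e-06 to 0.00503. With edgeR's robust shrinkage, which gives genes of unusual spread a wider error, it was not called (adjusted p = 0.0697). The titles number the non-loaded samples 2, 3 and 4 and the spironolactone samples 8, 10 and 11, and the level of Eif2s2 increased in the order of these numbers. The same held for Eif4enif1 among the members and for 140 of 13242 tested genes. What the number stands for is not given, and it cannot be told apart from the treatment here.

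The genes of the other eIF2 chains were not called, and their intervals lay below that of Eif2s2. The alpha subunit gene Eif2s1, whose product is the one phosphorylated in stress, measured 63.4, 63.0 and 64.2 TPM in non-loaded and 69.8, 68.7 and 62.3 TPM in spironolactone libraries (log2 fold change of counts 0.06 ± 0.08, adjusted p = 0.780, 95% interval −0.11 to 0.23). The gamma subunit gene Eif2s3, whose product binds GTP and the tRNA, measured 83.63, 94.98 and 100.3 TPM and then 102.1, 83.7 and 96.4 TPM (0.04 ± 0.06, adjusted p = 0.769, 95% interval −0.07 to 0.16). On the same scale Eif2s2 had 83.4, 99.3 and 128.3 TPM and then 177.6, 201.0 and 215.4 TPM. The TPM ratio of Eif2s2 to Eif2s3 was therefore 1.11 ± 0.15 in non-loaded and 2.13 ± 0.34 in spironolactone libraries, and that to Eif2s1 1.63 ± 0.35 and 2.98 ± 0.46 (SD, n = 3). These ratios were formed after the change of Eif2s2 was seen and are given with no test. They leave out the second gamma subunit gene, Eif2s3y. Its group means were 43.4 CPM in non-loaded and 40.9 CPM in spironolactone libraries (−0.09 ± 0.09, edgeR adjusted p = 0.683).

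**Figure D3:**
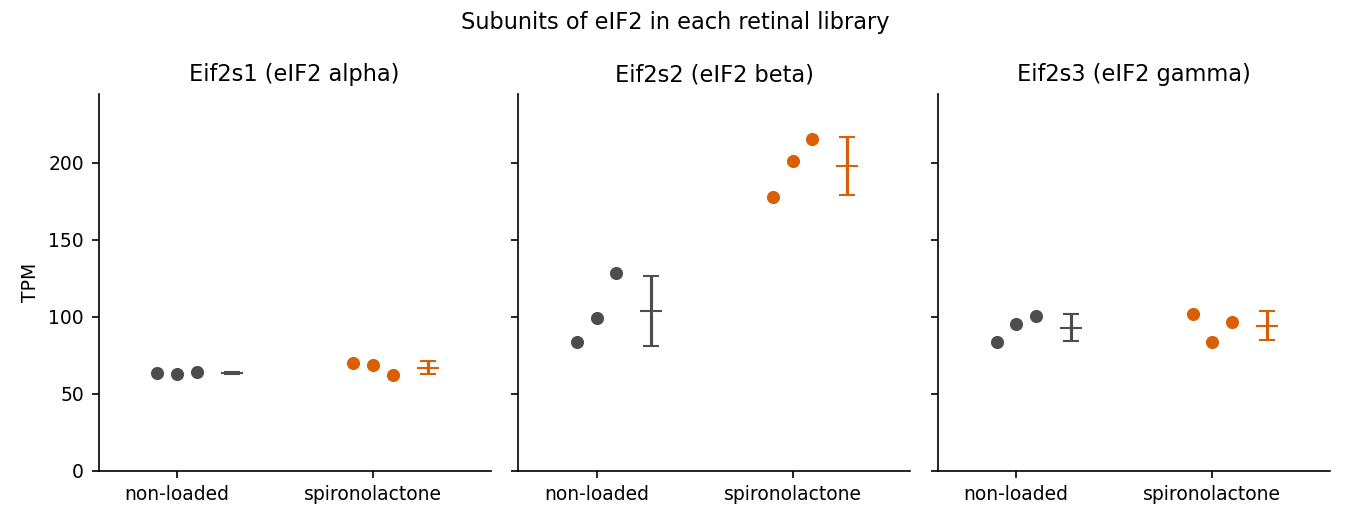
TPM of the genes of the 3 eIF2 subunits in each library, with the mean and SD of each group (n = 3) beside the points. The spironolactone points of Eif2s2 (177.6 to 215.4 TPM) lie above its non-loaded points (83.4 to 128.3 TPM), while the groups overlap for Eif2s1 and Eif2s3.

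The other called member was Eif1. It measured 425, 445 and 467 CPM in the non-loaded libraries and 549, 506 and 544 CPM in the spironolactone libraries. The groups did not overlap, and the highest non-loaded library was replicate 3. The means were 446 ± 20.9 and 533 ± 23.7 CPM (SD, n = 3), or 0.26 ± 0.06 on the log2 scale (SE; adjusted p = 0.0262 with edgeR). This call rested on several libraries: it was lost without non-loaded replicate 1 (adjusted p = 0.147) or 2 (0.110) and without spironolactone replicate 2 (0.0694) or 3 (0.0953), and on log2(TPM + 1) with limma (0.120). Its close relative Eif1b ranged from 76.9 to 88.6 CPM with overlapping groups (0.01 ± 0.07, adjusted p = 0.956). The share of Eif1b in the summed TPM of both genes was 22.4% to 23.2% in non-loaded and 18.5% to 20.7% in spironolactone libraries. This difference of −2.87 percentage points reached the smallest p that 3 against 3 samples allow (two-sided exact permutation test, p = 0.1; adjusted p = 0.5 over 5 shares), so it could not pass the threshold.

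The remaining genes of the role start site selection and ternary complex had log2 fold changes above 0 but did not pass. The role was set by gene names, so not every gene in it need act in start site selection. With Eif2s2 and Eif1 counted in, values above 0 held for all 9 genes of the role with each scaling and tool. Without non-loaded replicate 1 or spironolactone replicate 1 this held for 8. The median of the 9, the 2 called genes included, was 0.21. The role does not hold Eif2s1, Eif2s3 and Eif2s3y, which the rule leaves out (0.06, 0.04 and −0.09). Eif1ad, a gene named for its eIF1A-like domain, measured 22.9, 24.7 and 29.4 CPM and then 33.1, 37.3 and 29.3 CPM. The groups overlapped through spironolactone replicate 3 (0.37 ± 0.11, adjusted p = 0.0975), and the gene passed with no filter on low counts (edgeR, adjusted p = 0.0240) and without non-loaded replicate 3 (0.0472).

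Eif5b, the GTPase that joins the large to the small subunit, measured 109, 113 and 95.5 CPM in non-loaded and 117, 125 and 126 CPM in spironolactone libraries (0.21 ± 0.07, edgeR adjusted p = 0.118). Eif1a had 57.8, 65.5 and 62.2 CPM and then 72.5, 68.5 and 69.2 CPM (0.18 ± 0.07, adjusted p = 0.215). In both the groups did not overlap, and Eif5b in the non-loaded group was lowest in replicate 3. Eif1ax, the X-linked relative of Eif1a, ranged from 95.4 to 102.1 CPM with overlapping groups (0.03 ± 0.06, adjusted p = 0.856). Eif2a, whose product is distinct from the eIF2 alpha chain, and Eif2d, a tRNA-delivering factor, had log2 fold changes of 0.18 ± 0.08 (adjusted p = 0.320) and 0.23 ± 0.12 (adjusted p = 0.385).

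Of the 12 eIF3 subunit genes 0 passed with edgeR, DESeq2 or limma, and 2 had an unadjusted p below 0.05 with each of them. The median log2 fold change was 0.04, with 7 genes above and 5 below 0. Eif3a, the largest scaffold subunit, measured 227, 243 and 235 CPM in non-loaded and 249, 269 and 287 CPM in spironolactone libraries. The groups did not overlap (0.19 ± 0.06, edgeR adjusted p = 0.130), and the gene passed without spironolactone replicate 1 (0.0348). Eif3j, which sits near the decoding site, measured 39.2, 39.9 and 36.0 CPM and then 45.6, 40.9 and 46.8 CPM (0.21 ± 0.09, adjusted p = 0.232). The 10 other subunit genes had log2 fold changes from −0.11 (Eif3k) to 0.08 (Eif3l). For Eif3c, a core subunit, the fold lay between 0.944 and 1.12 (95% interval).

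**Figure D4:**
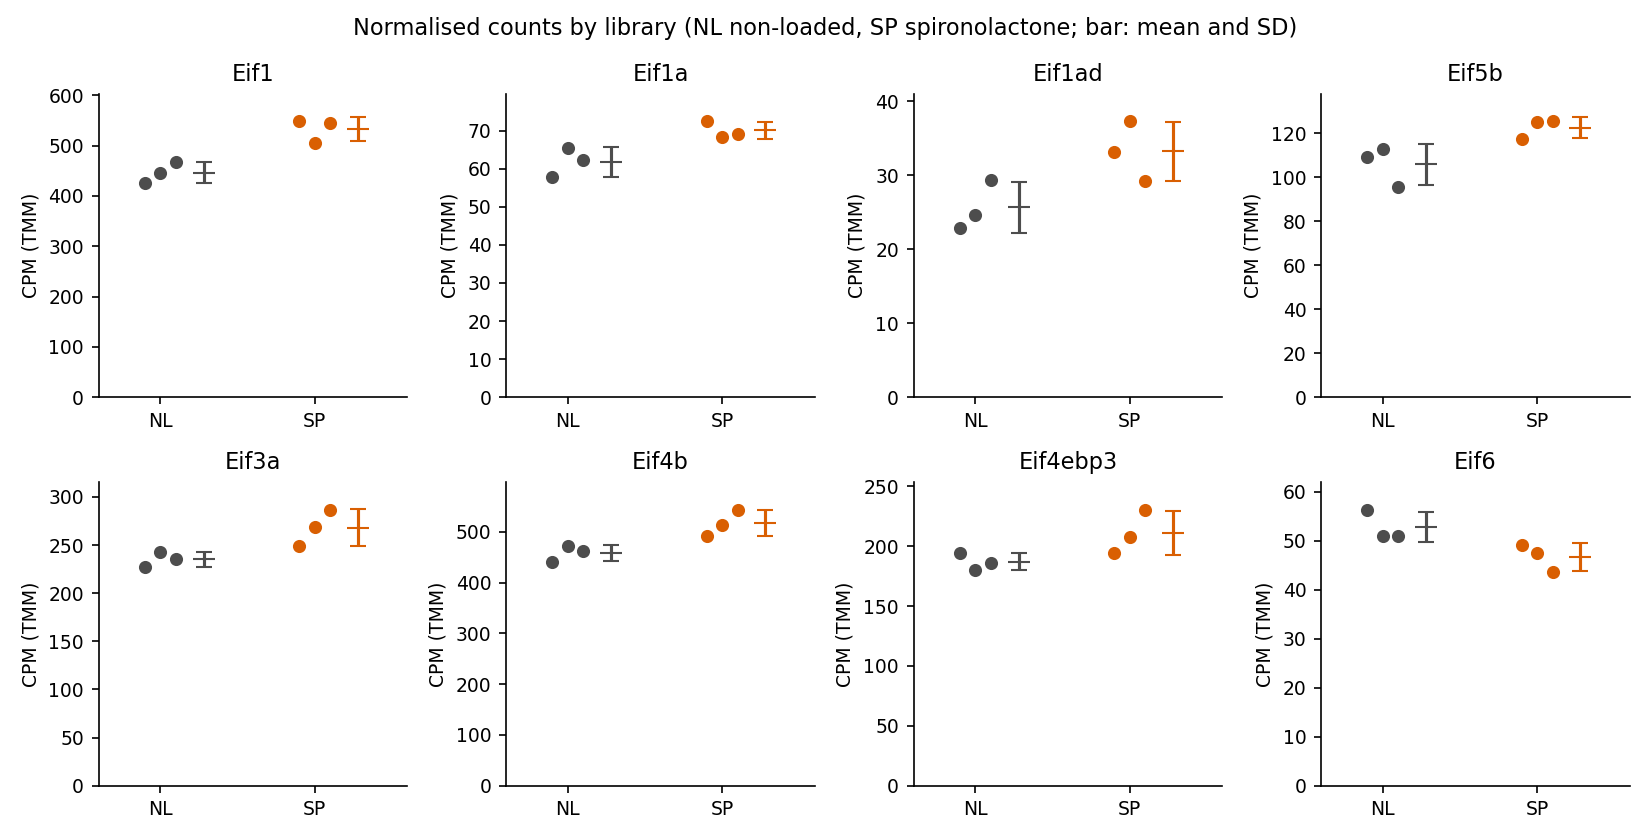
TMM-scaled CPM by library for Eif1 and 7 members that did not pass, with the mean and SD of each group (n = 3) beside the points. The 7 are Eif6 and the 6 members not called with the smallest p. The groups are apart for Eif1, Eif1a, Eif5b, Eif3a, Eif4b and Eif6 and overlap for Eif1ad and Eif4ebp3. Groups were apart for 30.8% of the tested members and 20.9% of all tested genes. Of the 8 genes shown only Eif1 passed.

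The cap-binding machinery showed no called gene among 11 tested with edgeR and limma, or among the 10 with an adjusted p from DESeq2, and 1, Eif4b, had an unadjusted p below 0.05. Eif4b, a cofactor of the helicase, measured 441, 472 and 462 CPM and then 493, 513 and 544 CPM. Its groups did not overlap (0.17 ± 0.06, edgeR adjusted p = 0.140). The gene of the cap-binding protein, Eif4e, measured 137, 132 and 129 CPM in non-loaded and 138, 135 and 135 CPM in spironolactone libraries (0.04 ± 0.06, adjusted p = 0.817), and its fold lay between 0.944 and 1.11 (95% interval).

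The scaffold genes were as close. Eif4g1 measured 116, 124 and 121 CPM and then 117, 121 and 129 CPM (0.02 ± 0.06, edgeR adjusted p = 0.905). Eif4g2, which supports initiation without the cap, measured 1202, 1223 and 1177 CPM and then 1153, 1159 and 1226 CPM (−0.03 ± 0.06, adjusted p = 0.883). Both pairs of groups overlapped, and the share of Eif4g2 in the TPM of the 3 scaffold genes was 73.7% ± 0.5 in non-loaded and 72.4% ± 1.2 in spironolactone libraries (two-sided exact permutation test, p = 0.3, adjusted p = 0.625).

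The helicase genes Eif4a1 (213 to 224 CPM over the 6 libraries) and Eif4a2 (326 to 391 CPM) had log2 fold changes of −0.04 ± 0.05 (edgeR adjusted p = 0.815) and −0.09 ± 0.06 (adjusted p = 0.536). The share of Eif4a2 in the TPM of both was 60.4% ± 1.7 in non-loaded and 59.6% ± 1.5 in spironolactone libraries (two-sided exact permutation test, p = 0.7, adjusted p = 0.7). The 5 other tested genes of this role lay between −0.07 (Eif4e2) and 0.10 (Eif4e3).

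The 4E-binding proteins restrain initiation by occupying eIF4E, and Eif4ebp1 is a known target of ATF4. None of the 4 genes of this role was called by edgeR or limma, and none of the 3 that had an adjusted p with DESeq2, which gave none for Eif4ebp1. With edgeR 1 had an unadjusted p below 0.05, and all 4 had log2 fold changes above 0 with each scaling (median 0.13; 3 of 4 without spironolactone replicate 3, where Eif4ebp2 was −0.04). Eif4ebp1 was scarce, with 1.52, 3.14 and 2.38 CPM in non-loaded and 4.67, 2.63 and 3.61 CPM in spironolactone libraries. The groups overlapped, and with 15 to 50 counts in a library the interval of the fold was wide (1.52-fold, 95% interval 0.964 to 2.40, edgeR adjusted p = 0.365).

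The row named Eif4ebp3 had the highest TPM of the 3 Eif4ebp genes and measured 194, 180 and 186 CPM and then 194, 208 and 231 CPM (0.17 ± 0.07, edgeR adjusted p = 0.198). Its non-loaded means were 187 CPM and 50.1 TPM, against 120 CPM and 46.9 TPM for Eif4g1, so the length used for it was the longer. Whether these counts come from Eif4ebp3 alone was not tested. The share of Eif4ebp1 below and the count of 4 genes above rest partly on this row. Eif4ebp2, the main form of the brain, measured 32.8, 31.3 and 27.2 CPM and then 27.6, 31.5 and 37.2 CPM (0.08 ± 0.11, adjusted p = 0.783). For Eif4ebp3 and Eif4ebp2 the groups overlapped. The share of Eif4ebp1 in the TPM of the 3 genes was 6.97% ± 2.44 and 9.40% ± 3.06 (two-sided exact permutation test, p = 0.5, adjusted p = 0.625). This difference of 2.43 percentage points was 0.72 without spironolactone replicate 1 and 1.15 without non-loaded replicate 1. Eif4enif1, which carries eIF4E into the nucleus, ranged from 96.9 to 101.4 CPM in non-loaded and from 101.6 to 107.0 CPM in spironolactone libraries (0.07 ± 0.06, adjusted p = 0.619).

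All 3 genes of eIF5A and eIF6 had log2 fold changes below 0 with each scaling, tool and left-out library. The same held for Eif4a1, Eif4a2 and Eif4g2 above, while Eif4a3 was above 0 (0.08 with edgeR). None of the 3 genes of eIF5A and eIF6 passed with edgeR, DESeq2 or limma. Eif6, which keeps the ribosomal subunits apart, measured 56.4, 51.0 and 50.9 CPM in non-loaded and 49.1, 47.6 and 43.5 CPM in spironolactone libraries (−0.17 ± 0.08, edgeR adjusted p = 0.297). With edgeR it was the only member lower at an unadjusted p below 0.05, and with DESeq2 there was none. Eif5a measured 247, 248 and 249.9 CPM and then 240.5, 234 and 230.4 CPM (−0.08 ± 0.05, adjusted p = 0.507). The groups did not overlap for either gene. Its relative Eif5a2 ranged from 61.0 to 74.2 CPM with overlapping groups (−0.12 ± 0.07, adjusted p = 0.461), and made up 5.95% ± 0.29 and 5.82% ± 0.27 of the TPM of both (two-sided exact permutation test, p = 0.5, adjusted p = 0.625).

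Among other genes of translation, 1 of 20 regulators that act on the cap, the poly(A) tail or the small subunit was called (5%, against 2.63% of all tested genes; median 0.04). It was Larp1, which binds and regulates mRNAs of the translation machinery under mTORC1: 94.1, 95.2 and 100.3 CPM in non-loaded and 116.0, 117.5 and 122.7 CPM in spironolactone libraries, without overlap (0.30 ± 0.06, edgeR adjusted p = 0.0100). Larp1 did not pass without non-loaded replicate 1 (0.0637) or 2 (0.0612), without spironolactone replicate 2 (0.0645) or on log2(TPM + 1) (0.0785). Of 12 tested elongation and release factors 1 was called (8.33%; median −0.02). It was the release factor gene Etf1, with 97.6, 95.8 and 108.6 CPM and then 115.2, 120.9 and 129.6 CPM, also without overlap (0.27 ± 0.07, edgeR adjusted p = 0.0358). The call of Etf1 was lost without non-loaded replicate 1 (0.162) or 2 (0.164), without spironolactone replicate 2 (0.151) or 3 (0.174), and on log2(TPM + 1) (0.131).

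The 11 tested genes of mTORC1 and the S6 kinases (median 0.06) and the 12 genes of the remaining eIF2 subunits, eIF2B and the eIF2 kinases (median −0.03) had 0 calls with edgeR and limma, and with DESeq2, which gave an adjusted p for 10 and 12 of them, respectively. With edgeR, 3 of the former (27.3%, 2 higher and 1 lower) and 1 of the latter (8.33%) had an unadjusted p below 0.05, against 15.8% of all tested genes. The latter was the eIF2B subunit gene Eif2b3 (0.20 ± 0.09, edgeR adjusted p = 0.267).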

How the data were processed

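Expected counts per gene, unnormalised, and TPM were deposited by the authors in 1 RSEM table per sample, per the file headers. The submitters' processing notes name the rn6 build and, with no roles, RSEM 1.2.28, STAR 2.5.3a, Trimmomatic and FastQC. Libraries were stranded, per the labels' protocols; the annotation and whether counting used strand are not stated in these sources, so overlapping antisense transcripts may share reads with a gene. Effective lengths and FPKM were not used here. In each library 0.437% to 0.469% of gene values were fractional, but all values of the 40 members were whole (tolerance 1e-06), so no fractional share of a read was assigned to them; how reads shared by close copies such as Eif1a and Eif1ax were treated is not stated.

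Expected counts were rounded and genes kept by filterByExpr (13242 of 28358). Spironolactone was compared with non-loaded using edgeR 4.0.16 (TMM, glmQLFit, glmQLFTest, two-sided) under R 4.3.3. P-values were adjusted over the 13242 genes by the Benjamini-Hochberg method, and 0.05 was the threshold. The standard error is the log2 fold change over the square root of F, and the 95% intervals use it with the degrees of freedom of the test. TPM were compared by shares (exact permutation) and, on log2(TPM + 1) and log2(TPM + 0.1), with limma 3.58.1. DESeq2 1.42.0, other scalings and filters, robust shrinkage and leaving out each library were alternatives. The procedure was tested on simulated counts. Groups came from the treatment label, replicate numbers from accession order. The members and gene lists were chosen with earlier results of these data known.

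Every called member, the 6 others with the smallest p, and 13 tested members fixed by role (9 of them named by neither of the other criteria) were given with values in all libraries or by their range; other members named in the text are given more briefly. One marker gene is not reported here. Of the other translation genes those called were named, with Eif2b3 and the eIF2 subunits added after their values were seen.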

Additional observations from a re-analysis of the deposited data

How the results depend on the processing

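No paired analysis was possible because the labels give the groups no shared replicate numbers. Among members, 1 rather than 2 was called higher with robust shrinkage (1, Eif1), on log2(TPM + 1) (1, Eif2s2) and on log2(TPM + 0.1) (1, Eif2s2), and 1 to 3 when a library was left out: Eif2s2 each time, with Eif1 in 2 of 6 fits, Eif1ad without non-loaded replicate 3 and Eif3a without spironolactone replicate 1. No alternative called a member lower. Over all genes, 247 higher and 101 lower became 439 and 163 with no filter, 82 and 18 on log2(TPM + 1) and 79 and 16 on log2(TPM + 0.1), and ranged from 81 to 421 and 30 to 200 with a library left out. The median of the members was 0.066 on both TPM scales (0.0657 and 0.0662), where the median over all genes was 0.01 and 0.02, against 0.05 in counts. With a library left out, Eif4ebp2 ranged from −0.039 (without spironolactone replicate 3) to 0.18, and Eif4g1 from −0.016 (the same library) to 0.054, with −0.0019 without non-loaded replicate 1. The difference in the Eif4a2 share ranged from −1.51 to 0.13 percentage points that in the Eif5a2 share from −0.30 to 0.024, and that in the Eif4ebp1 share (2.43) from 0.72 without spironolactone replicate 1 to 3.67 without spironolactone replicate 2, with 0.42 as a share of CPM. Of 265 comparisons of 19 named genes with an alternative, 241 kept direction and side of the threshold. Most of these were comparisons of genes that were not called. For the called genes, 13 of 14 alternatives kept both for Eif2s2, 8 for Eif1, 9 for Larp1 and 8 for Etf1. The causes were not tested. Eif4ebp1 had 15 to 50 counts in a library, and Eif4e1b, with 1 to 4, did not pass the filter on low counts.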
